A study of Homo sapiens with 12 samples.

Results

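MIR221 and MIR222 are the genes of a pair of clustered microRNA (miRNA) precursors on the X chromosome. They were taken by name, as the precursors whose GENCODE v44 gene name is MIR221 or MIR222, which gave 2 of the 1881 precursors in the small RNA-seq tables. A375 is a human melanoma cell line, and A375-BIR is a line resistant to BRAF inhibitors that was derived from it by culture in rising concentrations of dabrafenib, a BRAF inhibitor. Small RNA-seq was carried out on 12 libraries, 3 in each of 4 groups: A375 in 0.1% DMSO (the vehicle), A375 in 200 nM dabrafenib, A375-BIR in 0.1% DMSO and A375-BIR in 200 nM dabrafenib, all for 48 h. All cells grew in RPMI with fetal bovine serum, and the sources used here do not say whether A375-BIR is a clone or a pool. The labels call the 3 libraries of a group biological replicates and say nothing further of how the cultures were kept apart, so the p-values measure the spread between these libraries.

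miR-221 and miR-222 are cut from a shared host transcript and carry the same seed, the stretch near the 5′ end of a miRNA that pairs with its target messages. They repress CDKN1B, which encodes the cell cycle inhibitor p27, and KIT, which encodes the receptor for stem cell factor that melanocytes depend on. In melanoma the pair is known for promoting proliferation and invasion.

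The mature sequences are shown because both members act through the same bases. They are given 5′ to 3′ from RefSeq, GRCh38.p14, where 3 mature entries matched the 2 genes. None of the 3 was a 5p entry of MIR221, so a 5p arm of miR-221 is neither shown nor marked here. Capitals mark the seed (bases 2 to 8).
hsa-miR-221-3p: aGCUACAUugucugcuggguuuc
hsa-miR-222-3p: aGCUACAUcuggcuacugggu
hsa-miR-222-5p: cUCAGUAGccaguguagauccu
The 3p arms lie at chrX:45746180-45746202 for miR-221 and chrX:45747036-45747056 for miR-222, and the 5p arm of miR-222 lies at chrX:45747073-45747094, all on the minus strand. The seed GCUACAU occurred in 2 of 2545 mature miRNAs of that table, miR-221-3p and miR-222-3p. Aligned over their whole length, the 2 mature 3p sequences were identical at 18 of 24 positions (75.0%).

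The precursor hairpins are shown because the reads were counted per precursor and not per arm. Capitals mark the mature arms given above.
MIR221: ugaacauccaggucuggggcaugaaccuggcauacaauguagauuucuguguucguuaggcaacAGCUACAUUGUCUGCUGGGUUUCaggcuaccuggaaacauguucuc
MIR222: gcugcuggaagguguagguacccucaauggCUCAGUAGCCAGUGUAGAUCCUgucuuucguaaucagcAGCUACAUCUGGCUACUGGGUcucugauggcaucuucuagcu
MIR221 (ENSG00000207870.1) lies at chrX:45746157-45746266 and MIR222 (ENSG00000207725.3) at chrX:45747015-45747124, both 110 bases long, on the minus strand and 748 bases apart (hg38). Both lie in introns of the long non-coding RNA gene MIR222HG (chrX:45745210-45770274), 1 of whose 4 annotated transcripts spans the pair. The hairpins were identical at 76 of 124 aligned positions (61.3%), and the longest stretch they shared was 9 bases. No other precursor in the tables shared 18 bases in a row with either of them.

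The sites in the 3′UTRs of CDKN1B and KIT are shown because the pair is known in melanoma for repressing these messages. Each is given as 22 bases of the message strand, with the match to the seed, ATGTAGC, in capitals.
CDKN1B site 1: aaagcgttggATGTAGCattat
CDKN1B site 2: tttaccttttATGTAGCacata
KIT site 1: ttggattcttATGTAGCaggaa
KIT site 2: aaatattgaaATGTAGCaataa
The CDKN1B sites lie at chr12:12721218-12721239 and chr12:12721291-12721312, in a 3′UTR of 1342 bases. The KIT sites lie at chr4:54739577-54739598 and chr4:54740506-54740527, in a 3′UTR of 2158 bases. Of 2315 3′UTRs within 20% of the length of that of CDKN1B, 6.3% held at least 1 such match and 0.3% held as many. Of 2408 within 20% of that of KIT, the shares were 9.8% and 0.7%. The messages themselves were not measured here.

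The promoter of MIR222HG is shown because both precursors lie within this host gene. The part of this promoter in the differences given later was not tested. The window runs from 250 bases before to 50 bases after the start site (RefSeq GRCh38.p14, chrX:45770218-45770517, minus strand), and capitals mark the motif matches.
MIR222HG promoter: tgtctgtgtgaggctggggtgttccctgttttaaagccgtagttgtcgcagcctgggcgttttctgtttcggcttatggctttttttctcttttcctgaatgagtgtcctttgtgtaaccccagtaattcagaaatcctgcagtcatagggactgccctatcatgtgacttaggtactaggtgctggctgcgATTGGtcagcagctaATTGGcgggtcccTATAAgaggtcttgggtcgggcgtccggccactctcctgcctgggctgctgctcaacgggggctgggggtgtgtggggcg
Both strands were searched for 5 motifs, and no match overlapped another. The TATA box letters TATAA matched 1 time, 30 bases before the start, and 20.4% of 35116 promoters of the same length held them. The CCAAT box letters CCAAT matched 2 times on the opposite strand (34.6% of promoters). The AP-1 letters TGANTCA (7.7% of promoters), the CRE letters TGACGTCA (1.8%) and the ETS letters CCGGAA (17.2%) had no match in this window. These are matches of letters, and binding was not measured here.

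Libraries were shallow and the drug-treated ones shallower. The total expected count per library had a median of 86898 (77264 to 121802) in A375 with DMSO and 47507 (36955 to 51532) in A375 with dabrafenib. In A375-BIR it was 120625 (106427 to 122792) with DMSO and 47607 (35070 to 59899) with dabrafenib. A count of 0 allows up to 3 counts, or 24.4 to 85.5 CPM (counts scaled to a fixed library total) depending on the library, and such limits cover counting error only. Compared over all precursors, A375-BIR DMSO replicate 3 stood apart from its group, with a chi-square per degree of freedom of 29.4 and 32.1 against replicates 1 and 2, which differed from each other by 2.50. Without it both members kept each call given later, with log2 differences between the lines in DMSO of -1.27 for MIR221 and -1.84 for MIR222 and changes with dabrafenib in A375-BIR of -0.999 and -0.53. Both members were far above the limit of a count of 0 in every library. At its lowest count, 340.42, counting error alone gives MIR221 a coefficient of variation of 5.42%, and for MIR222, at 89 counts, of 10.6%.

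MIR221 had expected counts of 1840.92, 2978.33 and 1865.33 in the 3 A375 libraries with DMSO and 640.33, 499 and 340.42 in those with dabrafenib. In A375-BIR its expected counts were 6073.67, 6388 and 5297.5 with DMSO and 770.17, 1801.25 and 1545.08 with dabrafenib. The counts were highest in A375-BIR with DMSO and lowest in A375 with dabrafenib. MIR222 had expected counts of 384.33, 579 and 437 in A375 with DMSO and 108, 99 and 89 with dabrafenib. In A375-BIR they were 1792, 2115 and 2308 with DMSO and 484, 830 and 474 with dabrafenib. MIR222 too was highest in A375-BIR with DMSO and lowest in A375 with dabrafenib, and it had fewer counts than MIR221 in each of the 12 libraries. Per base of precursor, MIR221 ranked 6 to 19 among all precursors of a library and MIR222 ranked 16 to 43, and how far differences between sequences in ligation or amplification enter such ranks was not measured.

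Together the pair took 2.88%, 2.92% and 2.65% of the counts in A375 with DMSO and 1.58%, 1.16% and 1.16% with dabrafenib. In A375-BIR its share was 7.39%, 7.05% and 6.19% with DMSO and 3.58%, 4.39% and 4.24% with dabrafenib. The 4 groups did not overlap in this share, and each A375-BIR library with dabrafenib exceeded each A375 library with DMSO. How often the shares of other precursors were ordered so was not counted.

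After TMM normalization, which scales libraries on the bulk of their precursors, MIR221 stood at 22042, 22612 and 19608 CPM in A375 with DMSO and at 16688, 14079 and 11298 CPM with dabrafenib. In A375-BIR it stood at 55024, 50098 and 36637 CPM with DMSO and at 21030.0, 27089 and 31250 CPM with dabrafenib. All A375-BIR libraries with DMSO were above all other libraries, and all A375 libraries with dabrafenib were below all other libraries. The groups between them, A375 with DMSO and A375-BIR with dabrafenib, overlapped. How many other precursors were ordered in this way was not counted. The group means of MIR221 were 14022 ± 2695 CPM in A375 with dabrafenib, 21420.5 ± 1595 in A375 with DMSO, 26456 ± 5139 in A375-BIR with dabrafenib and 47253 ± 9517 in A375-BIR with DMSO (SD, n = 3 each).

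MIR222 stood at 4597, 4396 and 4595 CPM in A375 with DMSO and at 2816, 2793 and 2957 CPM with dabrafenib. In A375-BIR it stood at 16234, 16587 and 15961 CPM with DMSO and at 13219, 12484 and 9587 CPM with dabrafenib. No group overlapped with any other. The lowest A375-BIR library was above the highest A375 library, as for 28 of 175 tested precursors (16.0%). MIR31 also showed no overlap of any group with another, and how many other precursors did so was not counted. The group means of MIR222 came in the same order as those of MIR221, 2856 ± 89.0 CPM in A375 with dabrafenib, 4529 ± 115 in A375 with DMSO, 11764 ± 1920.04 in A375-BIR with dabrafenib and 16260.3 ± 314 in A375-BIR with DMSO (SD, n = 3 each). MIR222 varied by 1.93% to 3.12% of its mean within 3 of the groups and by 16.3% in A375-BIR with dabrafenib, and MIR221 by 7.45% in A375 with DMSO and 19.2% to 20.1% in the other groups.

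**Figure D1:**
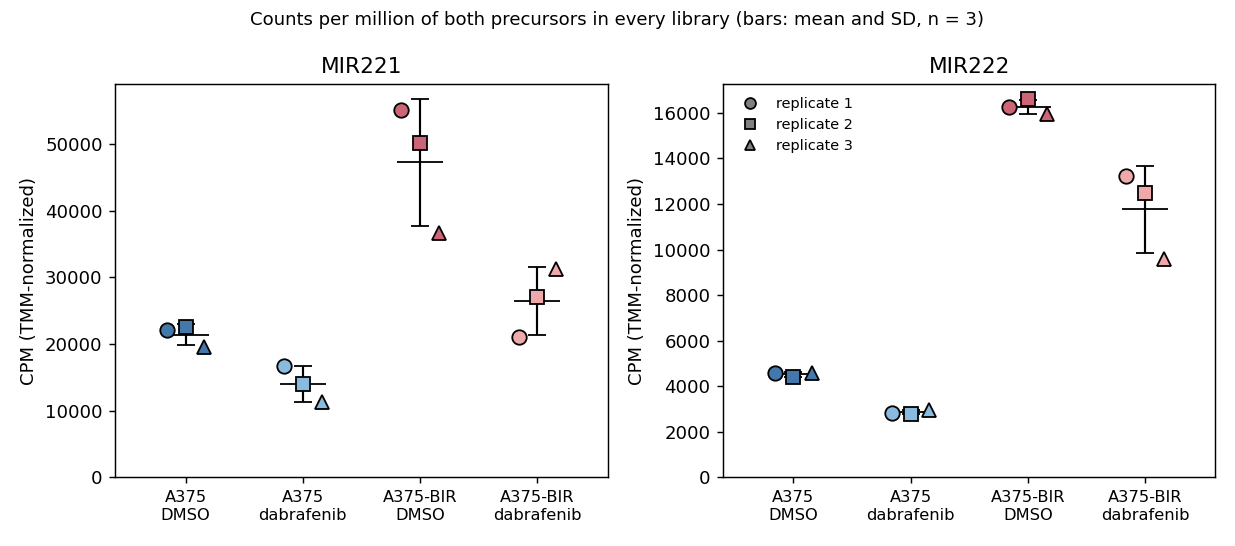
TMM-normalized CPM (linear axes from 0) of MIR221 (left) and MIR222 (right) in the 12 libraries, with points for libraries, horizontal lines for group means and bars for the SD (n = 3). MIR222 is between 2793 and 4597 CPM in A375 and between 9587 and 16587 CPM in A375-BIR, while MIR221 overlaps between A375 with DMSO and A375-BIR with dabrafenib.

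The first comparison asks how the sensitive and the resistant line differ, averaged over both treatments. Both members of the pair, repressors of p27 and KIT, were down-regulated in A375 with respect to A375-BIR. MIR221 was 2.04-fold lower (95% interval 1.67 to 2.49) and MIR222 was 3.84-fold lower (3.29 to 4.5), with 6 libraries of each line. In these bulk samples, fewer cells with a miRNA and less of it per cell cannot be told apart.

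On the log2 scale the difference for MIR221, A375 over A375-BIR, was -1.03 (SE 0.14, edgeR FDR = 1.70e-05). For MIR222 it was -1.94 (SE 0.11, FDR = 1.36e-09). Of 175 tested precursors, 60 (34.3%) passed the threshold of FDR 0.05 in the lower direction, so that both members fell on a side shared by about 1 in 3 precursors, and the median over all 175 was -0.11. The 6 A375 libraries were all below the 6 A375-BIR libraries for MIR222, as for 28 of 175 precursors (16.0%), whereas those of MIR221 overlapped. The two-sided exact permutation test with line labels exchanged within each treatment gave p = 0.005 for each member, the smallest of its 400 arrangements. With DMSO labels exchanged only within replicate numbers, chosen after seeing the data, the exact permutation p was 0.0125 for each, the smallest of 160 arrangements.

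With DMSO alone, both members were again lower in A375. Whether A375-BIR was kept in dabrafenib until these 48 h is not given in the sources used here. MIR221 was 2.21-fold lower, a log2 difference of -1.14 (SE 0.19, edgeR FDR = 0.000226). MIR222 was 3.59-fold lower, with -1.84 (SE 0.15, FDR = 1.10e-07). In this comparison 53 of 175 precursors (30.3%) passed in the lower direction, and the median was -0.16. All 3 A375 libraries were below all 3 A375-BIR libraries for each member, as for 59 of 175 precursors (33.7%). The exact permutation p was 0.1 for each, the smallest that 3 against 3 libraries allow. Exchanging labels only within replicate numbers, chosen after seeing the data, gave an exact permutation p of 0.25 for each, the smallest of 8 arrangements.

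In dabrafenib the lines also differed for both members. MIR221 was 1.89-fold lower in A375, a log2 difference of -0.92 (SE 0.19, edgeR FDR = 0.00140). MIR222 was 4.12-fold lower, with -2.04 (SE 0.15, FDR = 1.12e-07). Here 39 of 175 precursors (22.3%) passed in the lower direction, with a median of -0.03. Total counts in place of TMM gave -1.39 for MIR221 and -2.52 for MIR222, and moved the median of all precursors by -0.47. The libraries of the lines did not overlap for either member, as for 45 of 175 precursors lower in A375 (25.7%), and the exact permutation p was 0.1 for each, again the smallest possible.

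**Figure D2:**
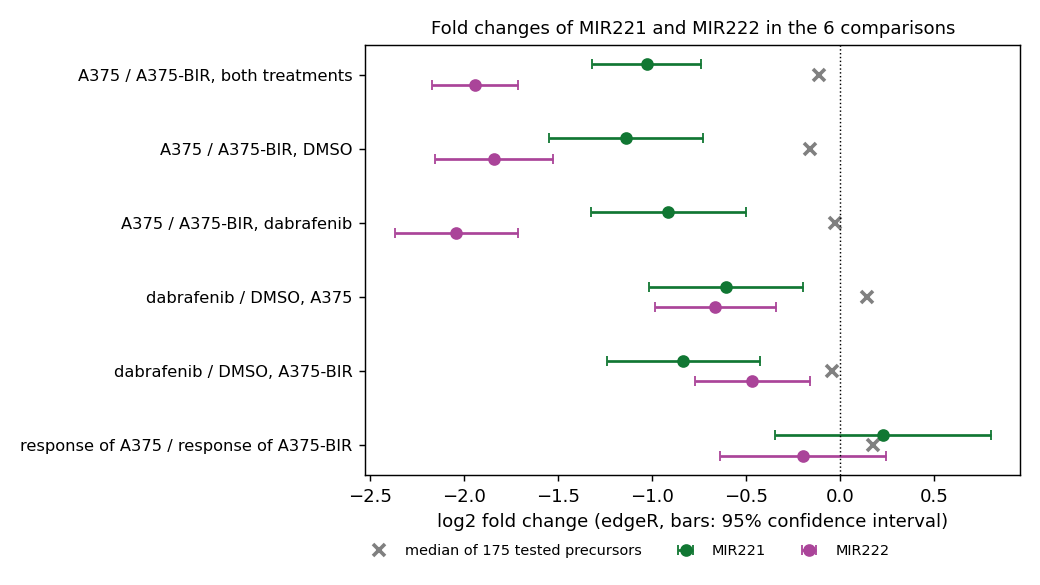
Log2 fold changes (horizontal axis) of MIR221 and MIR222 in the 6 comparisons (vertical axis), with points for edgeR estimates, bars for 95% confidence intervals and crosses for the median of the 175 tested precursors. Both members are left of 0 in the 3 comparisons of lines and the 2 of treatments, from -0.47 to -2.04, and the intervals of the difference in response include 0.

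Other measured miRNAs moved with the line as well. The melanocyte lineage list of 17 precursors, of which 11 had a count, was summed to 3470, 3240 and 3220 CPM of the total in A375 with DMSO and to 6360, 7430 and 5440 CPM with dabrafenib. In A375-BIR the sum was 225, 199 and 228 CPM with DMSO and 570, 351 and 735 CPM with dabrafenib. The list was higher in every A375 library than in every A375-BIR library, the direction opposite to that of the pair. Its most abundant member was MIR204, a miRNA of pigmented cells, with 154 to 212 counts in A375 with DMSO and 13 to 20 in A375-BIR with DMSO. MIR211, encoded in the melanocyte channel gene TRPM1, had 0 to 9 counts, and MIR507, MIR510, MIR514A1, MIR514A2, MIR514A3 and MIR514B were at 0. The part of this difference, and of those in the markers of other cell types, in that of the pair was not tested. Markers of other cell types were low: summed counts per library were 0 to 8 for blood, 0 to 9 for endothelium, 0 to 4 for epithelium and 0 to 6 for muscle, and 0 for hepatocytes and neurons. The endothelial marker MIR126 was higher in A375-BIR than in A375 with DMSO, the direction of the pair, at 47.0, 33.2 and 73.3 CPM of the total (4 to 9 counts) against 25.9, 0 and 0 CPM (0 to 2 counts), and the lines overlapped with dabrafenib. The fibroblast and smooth muscle genes MIR143 and MIR145 summed to 12 to 58 counts, nearly all of them MIR143 (12 to 57), and are given again with dabrafenib in A375-BIR.

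The next comparisons ask what 48 h of dabrafenib changed in each line. In A375, the sensitive line, both members fell with the drug. MIR221 was 1.53-fold lower and MIR222 was 1.59-fold lower than with DMSO, with 3 libraries in each group. All libraries with dabrafenib were below all libraries with DMSO for each member.

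The log2 change of MIR221 in A375 was -0.61 (SE 0.19, 95% interval -1.02 to -0.20, edgeR FDR = 0.0283). That of MIR222 was -0.67 (SE 0.15, 95% interval -0.99 to -0.34, FDR = 0.00378). In this comparison 12 of 175 precursors (6.86%) passed in the lower direction and 32 (18.3%) in the higher, and the median was 0.14. The lower count was 28 with only the libraries compared (34 higher), 34 with a filter of 1 CPM in 3 libraries (19 higher), 27 with no filter (20 higher) and 7 without A375 DMSO replicate 1 (23 higher). Libraries did not overlap, in the lower direction, for 31 of 175 precursors (17.7%), and the exact permutation p was 0.1 for each member, the smallest possible.

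The call for MIR221 in A375 was lost without the rRNA-like precursors (-0.63, FDR = 0.0814) and in 4 of the fits that left out 1 library, whereas that for MIR222 passed under each alternative. Scaling by total counts alone gave -1.11 for MIR221 and -1.16 for MIR222, and it moved the median of all precursors by -0.50. A filter of 1 CPM in 3 libraries gave -1.03 and -1.08, and no filter gave -1.01 and -1.06. A set of 17 precursors that share 18 bases with the 45S pre-rRNA took 3.22% to 5.59% of the counts in A375 with DMSO and 20.9% to 26.3% with dabrafenib, and in A375-BIR 2.65% to 4.57% and 14.4% to 16.9%. Without them, an alternative chosen after seeing the data, the edgeR estimates in A375 were -0.75 for MIR221 (FDR = 0.0294) and -0.81 for MIR222 (FDR = 0.00138). The summed melanocyte list moved with the drug in A375 as well, from 3220 to 3470 CPM of the total with DMSO to 5440 to 7430 CPM with dabrafenib. Its most abundant member, MIR204, rose by 1.84 on the log2 scale (edgeR FDR = 0.000289), and the part of this list in the fall of the pair was not tested.

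In A375-BIR, the resistant line, both members also fell with dabrafenib. MIR221 was 1.79-fold lower and MIR222 was 1.38-fold lower than with DMSO, with 3 libraries in each group. Again no library with dabrafenib reached the lowest library with DMSO for either member. With dabrafenib, all A375-BIR libraries had more MIR222 than all A375 libraries with DMSO (11764 against 4529 CPM on average). MIR221 overlapped between these groups, which were not compared by a test. The order of MIR222 was also that of MIR31 and MIR182, and how many other precursors shared it was not counted.

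The log2 change of MIR221 in A375-BIR was -0.84 (SE 0.19, 95% interval -1.24 to -0.43, edgeR FDR = 0.00661). That of MIR222 was -0.47 (SE 0.14, 95% interval -0.77 to -0.16, FDR = 0.0314). In this comparison 13 of 175 precursors (7.43%) passed in the lower direction and 23 (13.1%) in the higher, and the median was -0.04. The lower count was 1 with only the libraries compared (18 higher), 6 with the replicate block (20 higher), 2 without A375-BIR DMSO replicate 1, 6 without A375-BIR DMSO replicate 2, 5 without A375-BIR dabrafenib replicate 2 and 7 without A375-BIR dabrafenib replicate 3. It was 8 with the DESeq2 Wald test (20 higher) and 28 with a filter of 1 CPM in 3 libraries (25 higher). Libraries did not overlap, in the lower direction, for 32 of 175 precursors (18.3%), and the exact permutation p was 0.1 for each member. With a filter of 1 CPM in 3 libraries MIR222 was at -0.71, and with no filter at -0.72. Fitted on the 6 A375-BIR libraries alone, neither member passed (-0.75 with FDR = 0.0801 for MIR221 and -0.40 with FDR = 0.0851 for MIR222). With the replicate number as a block MIR222 did not pass either (-0.47, FDR = 0.0598). Leaving out 1 library ended the call of MIR221 without A375-BIR DMSO replicate 1 (-0.63, FDR = 0.0879) and that of MIR222 without A375-BIR DMSO replicate 1 (FDR = 0.100) or 2 (FDR = 0.0930) or A375-BIR dabrafenib replicate 2 (FDR = 0.0643) or 3 (FDR = 0.0847). The summed melanocyte list was higher with the drug in this line too, from 199 to 228 CPM with DMSO to 351 to 735 CPM with dabrafenib, and MIR204 was at 1.16 (edgeR FDR = 0.0632). The summed fibroblast and smooth muscle markers also moved with dabrafenib, from 249, 257 and 252 CPM of the total with DMSO to 627, 785 and 1110 CPM with the drug. In A375 they were 155, 296 and 667 CPM with DMSO and 526, 543 and 325 CPM with dabrafenib, which overlapped. MIR143 rose by 1.80 on the log2 scale in A375-BIR (edgeR FDR = 0.00661), and the summed blood markers were at 0, 8.29 and 24.4 CPM of the total with DMSO (0 to 3 counts) and at 28.5, 109 and 168 CPM with dabrafenib (1 to 8 counts). The part of these lists in the fall of the pair was not tested.

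**Figure D3:**
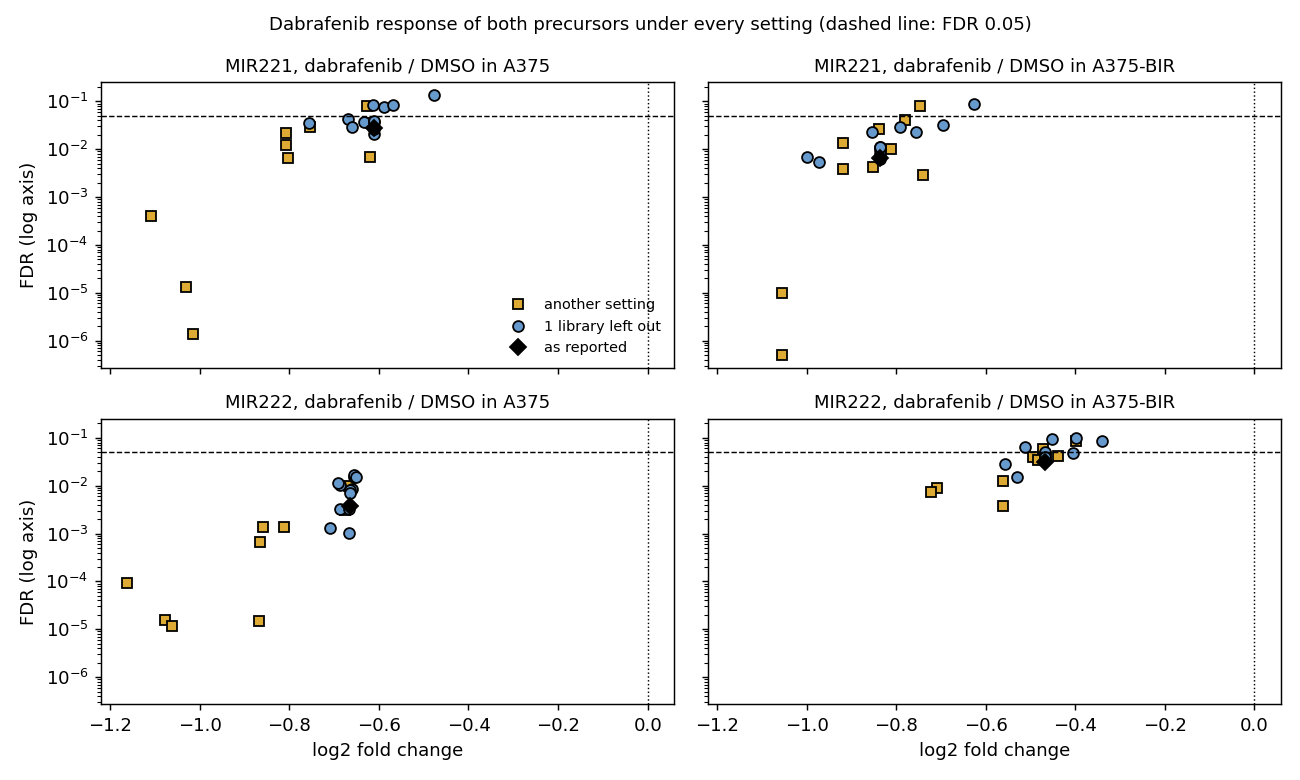
Log2 fold change with dabrafenib (horizontal axes) against FDR (vertical log axes, dashed line at 0.05) for each member and line, with a diamond for the value reported, circles for fits without 1 library and squares for other settings, the pair summed into 1 precursor included under MIR221. All points are left of 0, and MIR222 in A375 is the panel in which none lies above the dashed line.

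Whether the lines differed in their response was tested directly. The response of A375 minus that of A375-BIR was 0.23 on the log2 scale for MIR221 (SE 0.27, 95% interval -0.35 to 0.80, edgeR FDR = 0.753). For MIR222 it was -0.20 (SE 0.21, 95% interval -0.64 to 0.24, FDR = 0.710). Neither passed, as for all but 6 of the 175 precursors (3.43%), and 34 had an unadjusted p under 0.05. The 6 became 0 without the rRNA-like precursors, 2 without those sharing bases with the 45S pre-rRNA and 3 without A375 DMSO replicate 1. The 34 became 19 with the DESeq2 Wald test and 21 without A375-BIR dabrafenib replicate 1. Leaving out 1 library gave -0.0066 to 0.36 for MIR221 and -0.33 to -0.11 for MIR222. The intervals leave room for a difference of up to 0.80 for MIR221, so an equal response is not shown. With total counts in place of TMM the direction for MIR221 turned (-0.26, edgeR FDR = 0.680), and the value for MIR222 grew to -0.67 (95% interval -1.15 to -0.19, unadjusted p = 0.0102, edgeR FDR = 0.110), where the median of all precursors moved by -0.47.

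**Figure D4:**
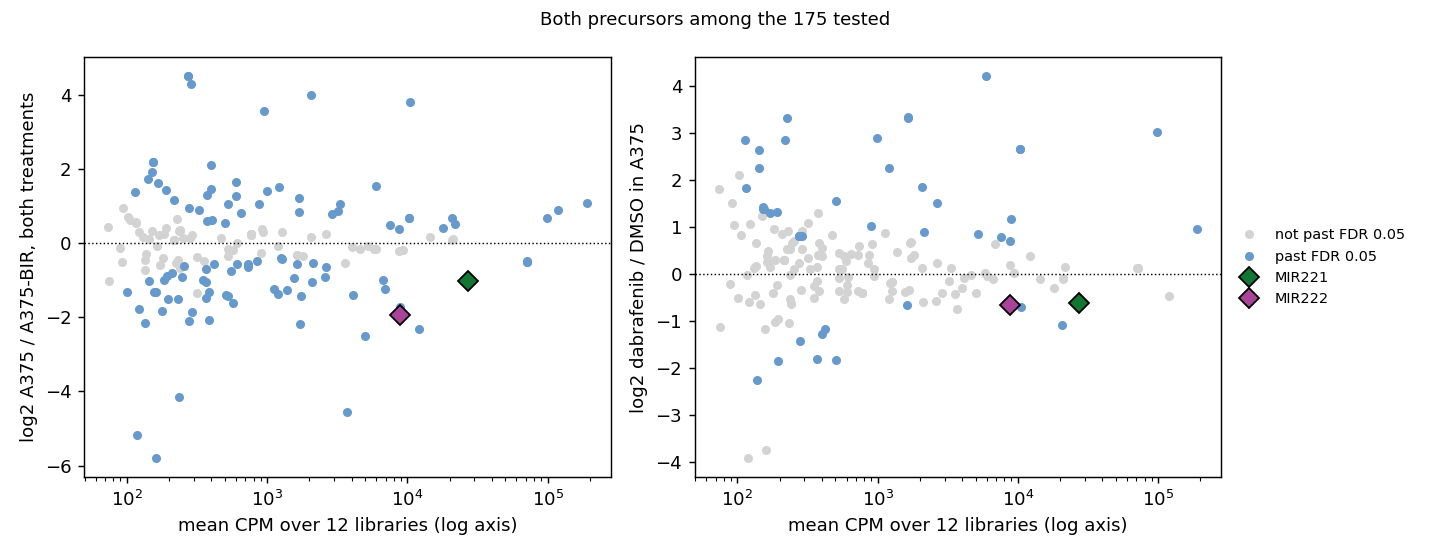
Log2 fold change (vertical axes) against mean TMM-normalized CPM over the 12 libraries (horizontal log axes) for the 175 tested precursors, with diamonds for MIR221 and MIR222 and blue points for others past FDR 0.05. The left panel compares the lines (-1.03 and -1.94 for the pair) and the right panel dabrafenib with DMSO in A375 (-0.61 and -0.67).

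The choice of scaling moved the balance of all calls. Against TMM, total counts shifted the median log2 difference between lines by -0.23 over both treatments and by -0.47 in dabrafenib, and DESeq2 size factors shifted it by 0.11 over both treatments and 0.16 in DMSO. The dabrafenib change in A375 was shifted by -0.50 and -0.20, and the difference in response by -0.47 and -0.12. Higher and lower calls were 45 and 60 for the lines over both treatments (35 and 72 with total counts, 54 and 50 with DESeq2 size factors), 28 and 53 in DMSO (38 and 43 with DESeq2 size factors) and 42 and 39 in dabrafenib (24 and 59 with total counts). For dabrafenib they were 32 and 12 in A375 (18 and 44 with total counts, 23 and 23 with DESeq2 size factors) and 23 and 13 in A375-BIR (23 and 20 with DESeq2 size factors), and for the difference in response 5 and 1 (3 and 5 with total counts). Both members kept the lower direction in all 5 comparisons of lines and treatments under both scalings.

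The ratio of MIR222 to MIR221 within a library needs no scaling between libraries. It was 0.209, 0.194 and 0.234 in A375 with DMSO and 0.169, 0.198 and 0.261 with dabrafenib. In A375-BIR it was 0.295, 0.331 and 0.436 with DMSO and 0.628, 0.461 and 0.307 with dabrafenib. Every A375-BIR library had a higher ratio than every A375 library, while the treatments overlapped within each line.

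On the log2 scale the mean ratio was -2.24 ± 0.136 in A375 with DMSO, -2.27 ± 0.32 in A375 with dabrafenib, -1.52 ± 0.289 in A375-BIR with DMSO and -1.16 ± 0.519 in A375-BIR with dabrafenib (SD, n = 3 each). The lines differed by -0.92 over both treatments (two-sided exact permutation p = 0.005, the smallest of 400 arrangements, adjusted p = 0.025 over 5 comparisons). Within a treatment the difference was -0.72 in DMSO and -1.11 in dabrafenib (exact permutation p = 0.1 each, the smallest possible with 3 against 3, adjusted p = 0.167). With dabrafenib the ratio changed by -0.04 in A375 (exact permutation p = 0.9, adjusted p = 0.9) and by 0.35 in A375-BIR (exact permutation p = 0.4, adjusted p = 0.5). DMSO labels were also exchanged only within replicate numbers, taken as pairing the DMSO groups, a choice made after seeing the data. Over both treatments this gave an exact permutation p of 0.0125 (adjusted p = 0.0625). As 0.0125 is the smallest that 160 arrangements allow, no data could have kept the call under this exchange. The call over both treatments was lost without any 1 of the A375 libraries with dabrafenib (adjusted p = 0.05, exact permutation).

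**Figure D5:**
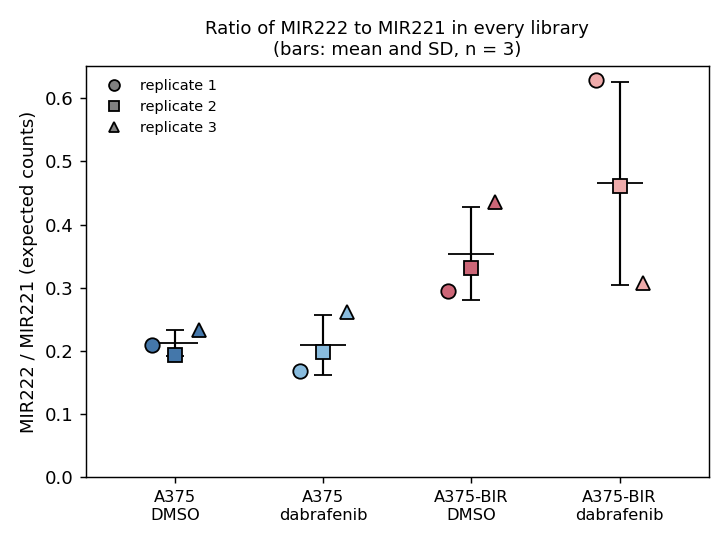
Ratio of MIR222 to MIR221 expected counts (vertical axis from 0) in the 12 libraries by group, with points for libraries, horizontal lines for means and bars for the SD (n = 3). The A375 libraries lie between 0.169 and 0.261 and the A375-BIR libraries between 0.295 and 0.628.

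Across the 12 libraries, which share lines and treatments, log2 CPM of MIR221 and MIR222 had Pearson's r of 0.87 and Spearman's rho of 0.87. Of the 173 other tested precursors, 9 had a higher r to MIR221 than MIR222 had, and 21 had a higher r to MIR222 than MIR221 had. Around their group means the members did not move together (r = -0.52 over 12 libraries). The co-variation thus lay between groups.

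The precursors most like MIR221 over the 12 libraries were MIR7-1 (r = 0.97), MIR1307 (0.96), MIR24-2 (0.95), MIR7-3 (0.94) and MIR34A, a target of p53 (0.92). All 5 were lower in A375 than in A375-BIR over both treatments, with log2 differences of -1.51, -1.06, -0.95, -1.50 and -1.62. This direction follows from choosing precursors by likeness to MIR221, which was itself lower in A375. Those most like MIR222 were MIR182 (r = 0.99), MIR31 (0.98), MIR125B1 (0.96), MIR1269A (0.93) and MIR125B2 (0.92). They too were lower in A375, with -2.50, -4.55, -1.39, -4.16 and -1.42, which likewise follows from the choice. Of all 175 precursors, 34.3% passed in the lower direction. None of these precursors is on the X chromosome, and the copies of MIR7 and of MIR125B give the same mature miRNA, so they are not separate measurements. MIR31 stood at 351 ± 35.5 CPM in A375 with DMSO and 10232 ± 191 in A375-BIR with DMSO, and MIR182 at 1728 ± 55.7 and 9275 ± 990.1 (SD, n = 3).

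Other miRNAs known to act on KIT or CDKN1B formed a list of 13, of which 11 passed the filter and MIR494 and MIR24-1 were at 0 in all libraries. Over both treatments 5 of the 11 were lower in A375 and 1 was higher, where 34.3% of all 175 were lower and 25.7% higher, with a median of -0.49 against -0.11 over all 175. The 5 include MIR196A1 and MIR196A2, copies that give the same mature miRNA and are not separate measurements. MIR24-2, a repressor of CDKN1B, was at -0.95 (edgeR FDR = 5.38e-05), MIR34A, a repressor of KIT, at -1.62 (FDR = 6.39e-05) and MIR196A2 at -1.40 (FDR = 3.99e-05), the direction of the pair. The most abundant members, MIR181A1 (0.11, FDR = 0.414) and MIR181A2 (0.07, FDR = 0.559), did not pass. With dabrafenib in A375, 2 of 11 were lower and 0 higher (6.86% and 18.3% of all 175), with a median of -0.11 against 0.14, and these 2 are the MIR196A copies (-1.81 for MIR196A1 and -1.84 for MIR196A2). In A375-BIR 2 were lower and 0 higher (7.43% and 13.1% of all 175), MIR24-2 and MIR196A1, with a median of -0.34 against -0.04.

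Of 4 other miRNAs induced by ERK, AP-1 or CREB, MIR21 and MIR155 passed the filter, while MIR132 (0 to 16 counts) and MIR212 (0 to 1) did not. MIR21 differed by 0.15 between the lines (edgeR FDR = 0.282), by -0.11 with dabrafenib in A375 (FDR = 0.659) and by -0.28 in A375-BIR (FDR = 0.253), and did not pass. MIR155 was higher in A375 over both treatments (3.55, FDR = 1.06e-07), opposite to the pair. With dabrafenib MIR155 was at -0.05 in A375 (FDR = 0.893) and at 1.54 in A375-BIR (FDR = 0.0395). There it stood at 45.3, 125 and 83.0 CPM with DMSO and at 27.3, 346 and 324 CPM with dabrafenib, so that the groups overlapped, and its lowest library had 1 count.

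On the X chromosome 116 other precursors were listed, of which 58 had a count and 13 passed the filter. Over both treatments 7 of the 13 were higher and 3 lower in A375, where 25.7% of all 175 were higher and 34.3% lower, with a median of 0.66 against -0.11 over all 175. The 7 include MIR509-1, MIR509-2 and MIR509-3, copies that are also in the melanocyte list, and ENSG00000275110.1, which shares 18 bases with the 45S pre-rRNA and is itself the median (0.66). With dabrafenib in A375, 4 were higher and 1 lower (18.3% and 6.86% of all 175, median -0.03), the 4 being ENSG00000275110.1 (3.01) and the MIR509 copies (0.80, 0.80 and 0.81). The 1 lower was MIR767 (-0.66, edgeR FDR = 0.0323), the direction of the pair. In A375-BIR 1 was higher, ENSG00000275110.1 (2.42), and 0 lower (13.1% and 7.43% of all 175, median -0.05). Among the most abundant, MIRLET7F2 was at 0.77 between the lines, MIR664B at 0.30, MIR92A2 at -0.15 and MIR767 at -0.58. The nearest tested precursor above the pair was MIR532 (chrX:50003148-50003238, plus strand), 4260 kb away, which was higher in A375 over both treatments (1.60, SE 0.41, edgeR FDR = 0.00379) at 1 to 28 counts. It did not pass in DMSO (0.63, FDR = 0.257) and passed in dabrafenib (2.58, FDR = 0.00633). On the other side of the pair, 17 precursors were listed and 0 passed the filter.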

How the data were processed

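Total RNA of the 12 cultures was made into small RNA libraries with the Lexogen Small RNA-Seq kit. The authors trimmed the reads, removed those from rRNA and phiX and counted the rest per precursor with RSEM 1.2.25 on hg38, and the deposited values are expected counts, which need not be whole and can split reads between similar precursors. MIR221 had whole values in 2 of 12 libraries and MIR222 in 11 of 12. The submitters' notes also name R 4.0.2 and edgeR.

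Names and positions came from GENCODE v44 (1877 of 1881 identifiers matched) and sequences from RefSeq GRCh38.p14. Expected counts were rounded and fitted in 1 model of the 4 groups with edgeR 4.0.16 (R 4.3.3): filterByExpr kept 175 of 1881 precursors, followed by TMM, glmQLFit and glmQLFTest (the quasi-likelihood test), with p-values adjusted over all 175 by the method of Benjamini and Hochberg (FDR, threshold 0.05). The biological coefficient of variation was 21.6%. CPM were scaled by the TMM library size, except for the summed cell type markers, which are scaled by the total count. Exact permutation tests used log2 CPM, and the ratio a pseudocount of 0.5. The steps were tested on simulated data, whose changes were larger than the dabrafenib changes of the pair. Recovered were 43 of 43 changed precursors for the lines over both treatments and 34 of 46 for the difference in response. For dabrafenib they were 46 of 47 in A375 and 42 of 47 in A375-BIR. The members and the lists were chosen with earlier results of these data known.

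Named were both members, the 5 tested precursors with the highest Pearson's r to each, the nearest tested X neighbours, and up to 5 members of each list by count. Alternatives were DESeq2 size factors, total counts, a filter of 1 CPM in 3 libraries, no filter, the DESeq2 1.42.0 Wald test, only the libraries compared, the replicate block, the pair as 1 precursor, leaving out rRNA-like precursors (MIR663A, MIR663B and the copies of MIR3648 and MIR6724), other pseudocounts (0 and 5) and leaving out each library. Removal of the precursors that share 18 bases with the 45S pre-rRNA, and permutation of DMSO labels within replicate numbers, were chosen after seeing the data.

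Libraries of a group were not copies of each other: in 12 pairs, chi-square divided by its degrees of freedom was 2.50 to 32.1, highest for those with A375-BIR DMSO replicate 3. Replicate numbers come from the labels. Deviations of same-numbered libraries from their group means correlated at 0.11, 0.22 and 0.30 between A375 DMSO and A375-BIR DMSO, so that numbers were taken as pairing these 2 groups. The other pairs of groups each had at least 1 correlation of 0.1 or less.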

Additional observations from a re-analysis of the deposited data

How the results depend on the processing

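In all comparisons of the lines both members kept their direction and passed the threshold under each alternative run, as did MIR222 with dabrafenib in A375. Over the settings other than leaving out a library, the edgeR or DESeq2 log2 difference between lines over both treatments ranged from -1.26 to -0.92 for MIR221 and from -2.18 to -1.83 for MIR222.

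With dabrafenib, MIR221 in A375 lost its call without the rRNA-like precursors (-0.63, FDR = 0.0814, against a range over its settings of 1.35e-06 to 0.0814). Fitted on the libraries compared, MIR221 in A375-BIR (-0.75, FDR = 0.0801, range 5.06e-07 to 0.0801) and MIR222 (-0.40, FDR = 0.0851, range 0.00385 to 0.0851) lost theirs, and 19 precursors passed in place of 36. With the replicate block, MIR222 in A375-BIR missed the threshold (-0.47, FDR = 0.0598), and the pairing changed no other edgeR call of the members. In the exact permutation test of the ratio between the lines (-0.92), the replicate block for the DMSO libraries, added after seeing the data, moved the adjusted p from 0.025 to 0.0625, where 160 arrangements were left and the unadjusted p of 0.0125 was the smallest they allow. The labels do not say what a number shares, and the numbers did not pair the A375-BIR groups with each other. The difference in response of MIR221 turned to -0.26 with total counts (FDR = 0.680), that of MIR222 went from -0.20 to -0.67 (FDR = 0.110), and the count of 6 for that difference became 0 without the rRNA-like precursors (22 at an unadjusted p under 0.05) and 2 without those sharing bases with the 45S pre-rRNA. DESeq2 counted 6. The ratio with dabrafenib in A375 was 0.004 with a pseudocount of 5. Beyond the fewer libraries or precursors in these fits, the cause was not tested.

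Without 1 library, MIR221 with dabrafenib in A375 ranged from -0.76 to -0.48. It lost its call without A375 DMSO replicate 1 (-0.59) or 2 (-0.57) or A375 dabrafenib replicate 2 (-0.61) or 3 (-0.48). In A375-BIR MIR221 ranged from -0.999 to -0.63, and lost its call without A375-BIR DMSO replicate 1 (-0.63). There MIR222 ranged from -0.56 to -0.34, and lost its call without A375-BIR DMSO replicate 1 (-0.40) or 2 (-0.45) or A375-BIR dabrafenib replicate 2 (-0.51) or 3 (-0.34). The difference in response of MIR221 ranged from -0.0066 to 0.36, below 0 without A375 dabrafenib replicate 1 or A375-BIR DMSO replicate 1. That of MIR222 ranged from -0.33 to -0.11. The ratio between the lines ranged from -1.05 to -0.79, with an adjusted p of 0.05 without A375 dabrafenib replicate 1 (-0.84), 2 (-0.90) or 3 (-1.001). The ratio with dabrafenib in A375 ranged from -0.21 to 0.11, above 0 without A375 DMSO replicate 3 or A375 dabrafenib replicate 1. In A375-BIR the change of the ratio with dabrafenib ranged from 0.107 to 0.624. Counts of precursors past the threshold ranged from 20 to 46 for dabrafenib in A375-BIR (20 without A375-BIR DMSO replicate 1, 22 without 2) and from 3 to 6 for the difference in response (3 without A375 DMSO replicate 1 or A375 dabrafenib replicate 1 or 2). The drug-treated libraries were the shallowest, and MIR222 had 89 to 108 counts in those of A375.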

Other observations

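With dabrafenib in A375-BIR, replicates 1 and 3 deviated in opposite directions for the members. Replicate 1 had the lowest MIR221 (21030.0 CPM), the highest MIR222 (13219 CPM) and a ratio of 0.628, and replicate 3 had the highest MIR221 (31250 CPM), the lowest MIR222 (9587 CPM) and a ratio of 0.307. Replicate 2 was above the group mean for both (27089 and 12484 CPM). With DMSO in A375-BIR, replicate 3 was lowest for both members (36637 and 15961 CPM). The cause was not tested.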
